A study of Mus musculus with 8 samples.

Results

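The nuclear genes for subunits of mitochondrial complex I, and the assembly factors named after it, were compared between the striatal cell lines SThdh111/111 and SThdh7/7. The members were taken by name: every non-control probe set that the platform's gene annotation ties to exactly 1 gene whose symbol starts with Ndufa, Ndufb, Ndufc, Ndufs, Ndufv, Ndufab or Ndufaf followed by a number. This gave 88 of 45037 probe sets, for 36 subunit genes with 78 probe sets and 8 Ndufaf assembly factor genes with 10. A filter on low values kept a probe set if 4 or more of the 8 arrays gave it a log2 intensity of 4 or more; 87 of the 88 passed, and all 44 genes kept at least 1. The rule itself uses names and no measured value. The genes lie on 18 chromosomes. The accessory subunits Ndufs6 and Ndufa11 have no value under this rule and were not analysed here.

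Complex I is the first enzyme of the respiratory chain in the inner mitochondrial membrane. It takes electrons from NADH onto a flavin, passes them along iron-sulphur clusters to ubiquinone in its peripheral arm, and pumps protons through its membrane arm. Core subunits carry the catalysis, accessory subunits surround and stabilise them, and assembly factors help to build the enzyme without being part of it. Loss of respiratory capacity in striatal neurons has been studied as a feature of Huntington's disease, and mutations in many of these genes cause Leigh syndrome, a disease of the basal ganglia and brainstem.

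Biotin-labelled material from total RNA of each sample was read on an Affymetrix expression array that covers the mouse genome, with 4 arrays of SThdh111/111 and 4 of SThdh7/7. The labels give the line and a sample number and no treatment, time or age. Lines of these names are, as background, conditionally immortalised with a temperature-sensitive large T antigen and were derived from striatal primordia of knock-in mouse embryos. SThdh111/111 carries an expanded polyglutamine tract in both Htt alleles and SThdh7/7 a short one, and the antigen is shared. Each group is 1 line, so genotype and line cannot be told apart. The labels do not say that samples came from separate cultures, so a p-value reflects no more than the spread among the samples, which may be technical. In such bulk samples, fewer cells of a type and less RNA per cell cannot be told apart.

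Precision is limited by the number of arrays. The correlation of log2 values between arrays was 0.922 to 0.924 within SThdh111/111, 0.906 to 0.927 within SThdh7/7 and 0.866 to 0.885 from line to line. Median intensity was 136.2 to 147.0 on the SThdh111/111 arrays and 137.7 to 174.0 on the SThdh7/7 arrays, where samples 1 and 2 stood apart at 173.9 and 174.0. A floor was set at an intensity of 130.0 (log2 7.02) from bacterial control probe sets. Of the 7 striatal projection neuron markers measured, Drd1 and Ppp1r1b lay below it on all 8 arrays. The 7 summed to 1640 to 1744 in SThdh111/111 and 1085 to 1438 in SThdh7/7. Among them 1 was called higher, Penk (2.96), and 1 lower, Rgs9 (-0.71), which was above the floor on all arrays. The summed intensity of 6 mesenchymal markers was 92459 to 107808 in SThdh111/111 and 22624 to 23908 in SThdh7/7, with 5 of the 6 called higher and none of them below the floor on all arrays. The sum of 6 neural progenitor markers was 46690 to 50634 in SThdh111/111 and 48717 to 54610 in SThdh7/7, a sum made up mostly of Vim, but 3 of the 6 were called lower, Pax6 (-5.02), Sox2 (-2.06) and Nes (-1.38), and 1 higher. The part of such differences between the lines in the complex I results was not tested. Htt itself had log2 intensities of 8.90, 8.85, 8.81 and 8.26 in SThdh111/111, against 9.26, 9.30, 8.96 and 8.99 in SThdh7/7, a difference of -0.42 ± 0.16 (SE) that was not called (adjusted p = 0.084). It is not a knockout, so this level does not check the labels.

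The 3 promoters below are shown because they belong to the pair of subunit genes with the largest rise, Ndufa6 and Ndufs5, and to Ndufc2, the subunit gene with the lowest adjusted p among those that fell. Each is the 250 bases upstream of the annotated start, from RefSeq on build GRCm38.p6, 5′ to 3′ on the strand of the gene, with motif matches in capitals. Ndufa6 is at chr15:82354292-82354541 (minus strand), Ndufs5 at chr4:123718187-123718436 (minus strand) and Ndufc2 at chr7:97399753-97400002 (plus strand).
Ndufa6: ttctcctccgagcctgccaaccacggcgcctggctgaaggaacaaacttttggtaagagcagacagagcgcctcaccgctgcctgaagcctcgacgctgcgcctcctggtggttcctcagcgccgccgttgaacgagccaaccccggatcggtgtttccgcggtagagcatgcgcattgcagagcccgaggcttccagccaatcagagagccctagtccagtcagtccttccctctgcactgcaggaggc
Ndufs5: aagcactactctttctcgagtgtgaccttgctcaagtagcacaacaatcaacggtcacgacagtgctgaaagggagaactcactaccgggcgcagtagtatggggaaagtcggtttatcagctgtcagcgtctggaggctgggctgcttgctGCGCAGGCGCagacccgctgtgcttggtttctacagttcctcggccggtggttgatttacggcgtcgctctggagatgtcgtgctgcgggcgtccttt
Ndufc2: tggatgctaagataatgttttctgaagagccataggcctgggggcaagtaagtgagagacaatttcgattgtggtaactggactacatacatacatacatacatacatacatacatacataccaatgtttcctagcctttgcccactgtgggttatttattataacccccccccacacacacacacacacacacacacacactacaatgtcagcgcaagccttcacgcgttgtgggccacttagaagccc
Motifs of 4 factors known to act on nuclear genes of respiration were searched on both strands: GCGC, any base and then TGCGC for NRF1, CCGGAAG for GABP, TCAAGGTCA for ERR alpha and AANATGG for YY1. The capitals in Ndufs5 mark the NRF1 motif, read on the opposite strand, from 98 to 89 bases before the start. The other windows printed held none of the 4. A match describes letters and is not evidence of binding.

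Over the genes of this group, 39 of 44 had a promoter in the table, in 41 windows. The NRF1 motif was in 6 of the 41 windows (14.6%), against 3.74% of all 32851 promoters of this length. Those windows belong to Ndufa5, which has an overlapping pair of them counted apart, Ndufa8, Ndufaf4, Ndufb4 and Ndufs5. Among these genes Ndufs5 was the only one called between the lines at its main probe set. That of Ndufb4 was above the floor on 1 SThdh111/111 and 2 SThdh7/7 arrays, so its lack of a call carries little information. The GABP motif was in 5 windows (12.2%, against 6.91% of all), the YY1 motif in 7 (17.1%, against 12.4%) and the ERR alpha motif in 0 (against 0.387%). Of the 15 windows of subunit genes called higher, 1 held the NRF1 motif, 2 the GABP motif and 4 the YY1 motif.

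Of the 36 subunit genes, 15 rose and 2 fell in SThdh111/111 relative to SThdh7/7, and the other 19 did not pass the test. A gene is called here when limma's adjusted p, over all probe sets kept, is under 0.05, and each gene is counted once, at its probe set with the highest mean. Among all 17389 genes tested this way, 29.0% were called, 13.1% higher and 15.9% lower. Among the subunit genes, 47.2% were called, 41.7% higher and 5.56% lower. Most subunit probe sets are bright, and bright genes were called more often: of the 4202 genes with a mean log2 intensity of at least 10, 54.7% were called, 27.4% higher and 27.4% lower. The share of subunit genes called was therefore below that of bright genes, with more of it on the higher side; this difference was not tested. The median difference over the subunit genes was 0.09 on the log2 scale, against -0.09 over all genes and 0.00 over the bright ones.

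The changes were small. The rises ran from 1.17-fold to 1.77-fold, and no called gene differed by 1 or more on the log2 scale. The samples of the lines did not overlap for any of the 17 called subunit genes. Counting non-overlap alone, 15 subunit genes were higher in every SThdh111/111 sample and 4 lower, while 31.6% of all genes did not overlap, 14.3% higher and 17.3% lower. The 2 uncalled genes among these were Ndufs1 and Ndufs8. Replicates lay close together: the median SD of a subunit gene was 0.09 in SThdh111/111 and 0.12 in SThdh7/7, against 0.22 and 0.28 over all genes. Subunit genes were brighter, at a median log2 intensity of 12.28 against 8.27 over all genes. Neither the SD nor the non-overlap was compared with genes of matched brightness.

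**Figure D1:**
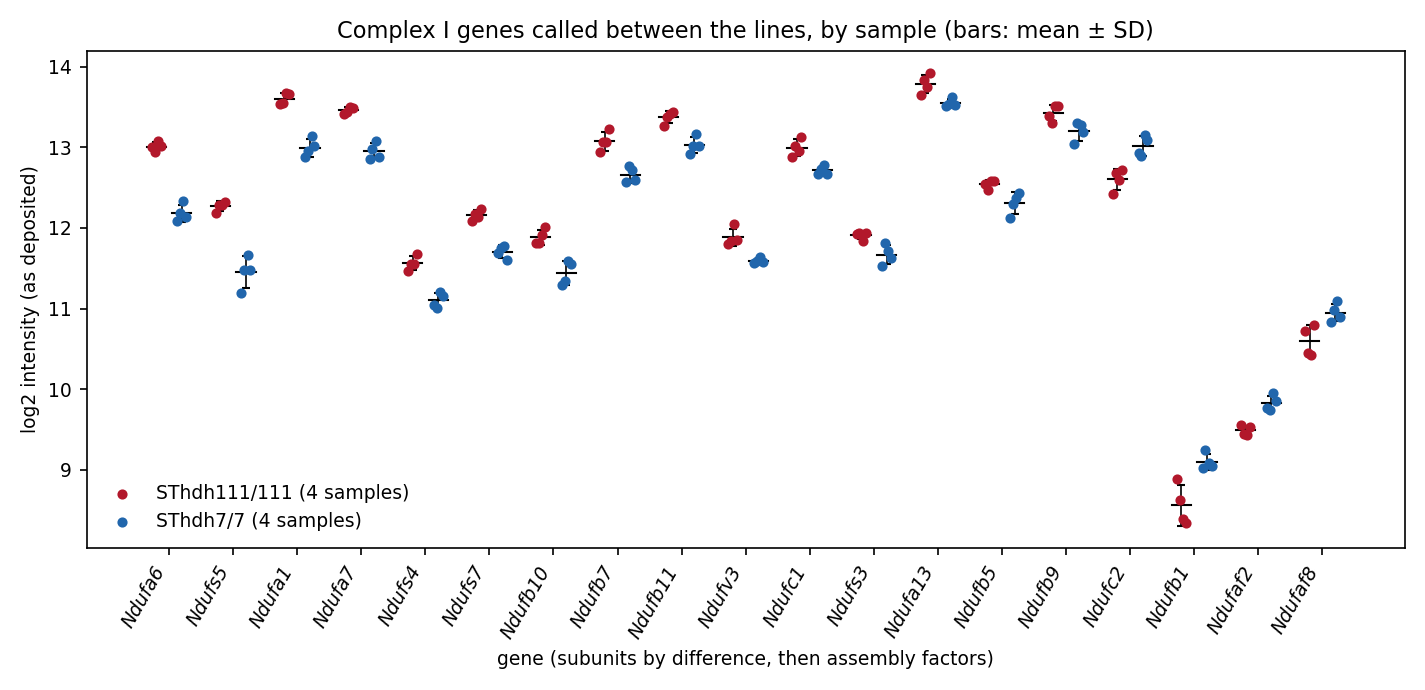
Log2 intensity (vertical axis) of each complex I gene called between the lines (horizontal axis; 17 subunit genes, then 2 assembly factors), with a point for each of the 4 samples of SThdh111/111 (left, red) and of SThdh7/7 (right, blue) and bars for mean ± SD. In the 15 genes called higher, every red point lies above every blue one; in Ndufc2, Ndufb1, Ndufaf2 and Ndufaf8 every red point lies below.

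The balance of rises and falls depended on the scaling of the arrays. The deposited values share a trimmed mean on every array. After quantile normalization, which gives all arrays the same distribution, 10 subunit genes were called higher and 5 lower, with a median of -0.03 (all genes: 28.7% called, 13.4% higher and 15.3% lower, median -0.02). After centring each array on its median, 12 were called higher and 0 lower, with a median of 0.23 (all genes: 23.0% called, 14.0% higher and 8.91% lower, median 0.06). For that 0 from limma, 1 subunit gene was lower at an unadjusted p under 0.05. Among bright genes, 55.1% were called after quantile normalization (24.1% higher, 31.0% lower, median -0.04) and 40.1% after centring (27.1% higher, 12.9% lower, median 0.15). The median over the subunit genes thus has no settled sign. The genes called higher under all 3 scalings numbered 10: Ndufa6, Ndufs5, Ndufa1, Ndufa7, Ndufs4, Ndufs7, Ndufb10, Ndufb7, Ndufb11 and Ndufv3.

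**Figure D2:**
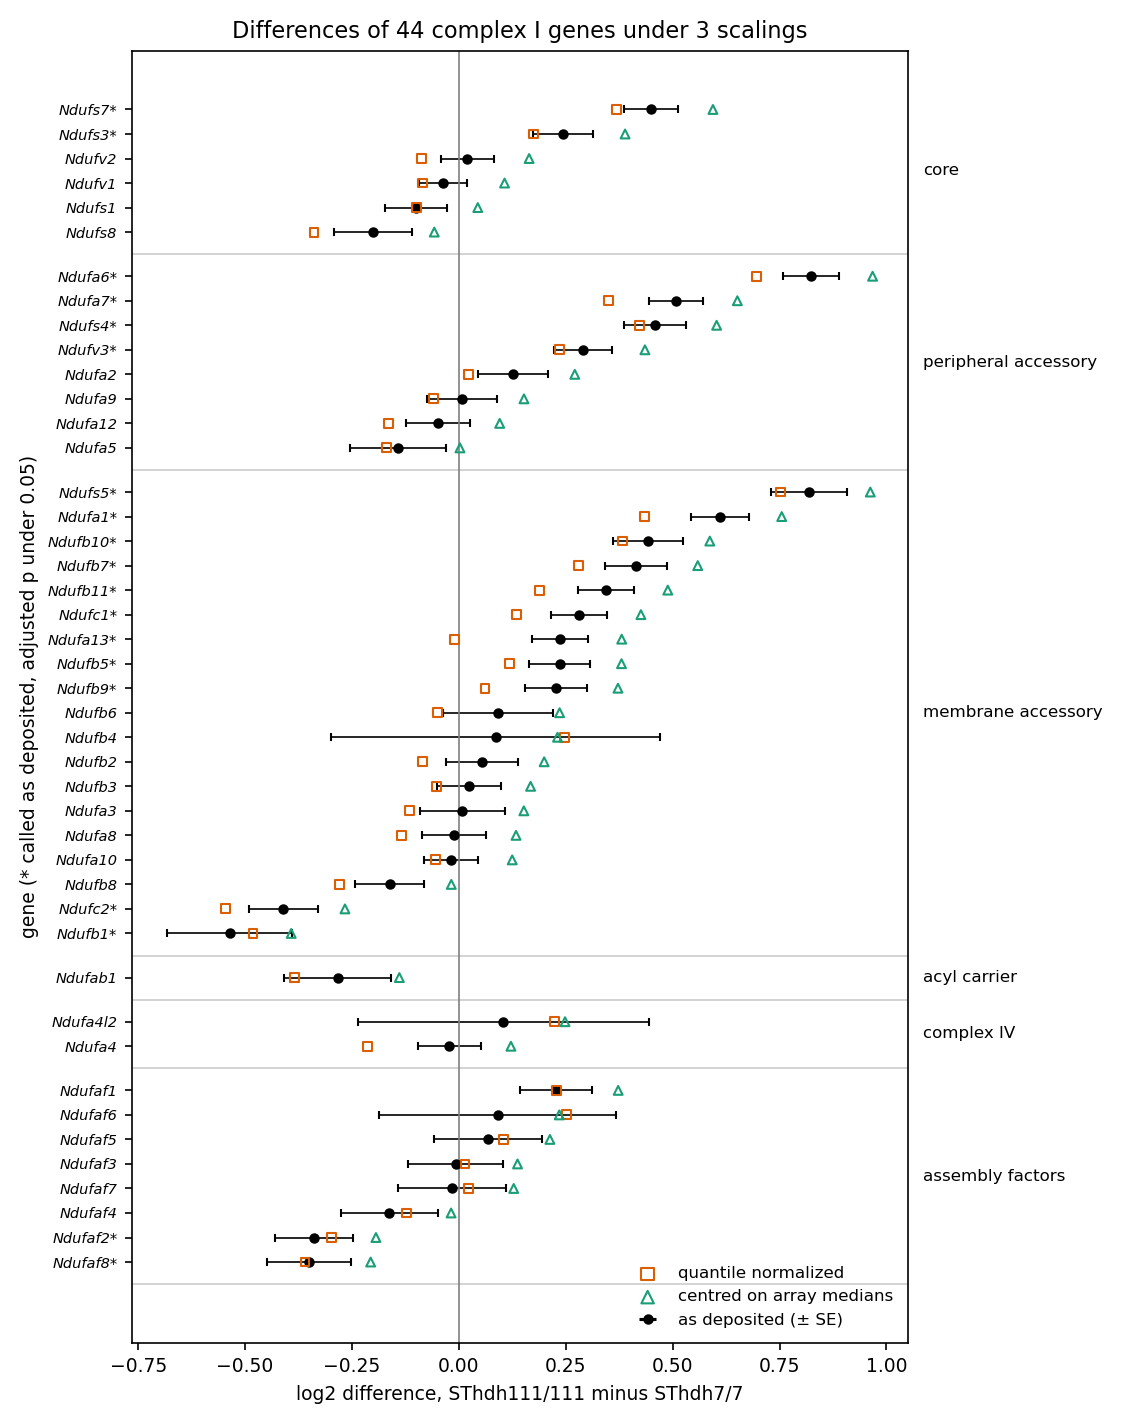
Log2 difference, SThdh111/111 minus SThdh7/7 (horizontal axis), of all 44 genes (vertical axis, in groups by role), as deposited (black, ± SE), after quantile normalization (orange squares) and after centring on array medians (green triangles); asterisks mark genes called as deposited. Ndufa6 and Ndufs5 lie furthest to the right under each scaling (0.70 and 0.75 after quantile normalization), while Ndufa13 moves to -0.01 after quantile normalization.

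The core subunits of the peripheral arm carry the flavin and the iron-sulphur clusters. Of the 6 measured, 2 rose, Ndufs7 and Ndufs3, and 4 did not pass the test. The share called was 33.3%, beside 54.7% of bright genes, of which 27.4% were called higher. Ndufs7, which holds the last iron-sulphur cluster before ubiquinone, had log2 intensities of 12.08, 12.17, 12.13 and 12.24 in SThdh111/111, against 11.70, 11.75, 11.77 and 11.61 in SThdh7/7. All SThdh111/111 samples were above all SThdh7/7 samples, and the difference was 0.45 ± 0.06 (SE; adjusted p = 0.00012). Its second probe set also rose, by 0.36.

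Ndufs3, a core subunit without a cluster, had 11.93, 11.94, 11.84 and 11.94 in SThdh111/111, against 11.53, 11.81, 11.71 and 11.63 in SThdh7/7. The lines were apart by a narrow margin, with a difference of 0.24 ± 0.07 (adjusted p = 0.022), and the call was lost after quantile normalization (0.18, adjusted p = 0.097). The call was also lost without any one of SThdh111/111 samples 1, 2 and 4 or SThdh7/7 samples 1 and 4, at differences of 0.20 to 0.24. The remaining core subunits differed by between -0.20 and 0.02. Ndufv1, which binds NADH and the flavin, averaged 11.64 ± 0.02 in SThdh111/111 and 11.68 ± 0.03 in SThdh7/7 (SD, n = 4 each), a difference of -0.04. Its partner Ndufv2 differed by 0.02, and Ndufs1, the largest core subunit, by -0.10 (adjusted p = 0.40).

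Ndufs8, another iron-sulphur subunit, had 12.57, 12.61, 12.61 and 12.63 in SThdh111/111, against 12.70, 13.14, 12.72 and 12.67 in SThdh7/7. The lines did not overlap, but 1 SThdh7/7 sample lay far above the other 3, and the difference of -0.20 did not pass (adjusted p = 0.15). It was called lower after quantile normalization (-0.34, adjusted p = 0.031). The other 5 probe sets of Ndufs8 differed by between -0.19 and 0.15 and none was called.

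Among 8 accessory subunits of the peripheral arm, 4 rose and none fell, with a median of 0.21. The share called was 50.0%, near the 54.7% of bright genes, of which 27.4% were called higher. After quantile normalization the same count of 4 was called higher. Ndufa6, a LYR-motif protein to which the acyl carrier subunit binds, showed the largest rise in the group. Its log2 intensities were 13.00, 12.94, 13.07 and 13.02 in SThdh111/111, against 12.08, 12.18, 12.33 and 12.14 in SThdh7/7. The gap between the lowest SThdh111/111 sample and the highest SThdh7/7 sample was wider than the range within either line. The means were 13.01 ± 0.06 in SThdh111/111 and 12.18 ± 0.11 in SThdh7/7 (SD, n = 4 each), a 1.77-fold difference (0.82 ± 0.07 on the log2 scale, adjusted p = 5.0e-07).

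Ndufa7 had 13.42, 13.44, 13.50 and 13.49 in SThdh111/111, against 12.86, 12.98, 13.08 and 12.88 in SThdh7/7. No samples overlapped and the difference was 0.51 ± 0.06 (adjusted p = 3.8e-05). All 4 of its other probe sets rose as well, by 0.58, 0.61, 0.79 and 0.81. Ndufs4, needed for the stability of the NADH-binding end and the subunit deleted in a mouse model of Leigh syndrome, had 11.47, 11.55, 11.55 and 11.67 in SThdh111/111, against 11.05, 11.01, 11.21 and 11.15 in SThdh7/7. The difference was 0.46 ± 0.07 (adjusted p = 0.0003), and of its other probe sets 1 rose, by 0.60, and the others differed by 0.27 and, at a dim one, by -1.12 without a call. The mean over the probe sets of Ndufs4 differed by 0.05 and was not called.

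Ndufv3, a small subunit beside the flavin site, gave the smallest called difference of these genes. Its values were 11.80, 11.83, 12.04 and 11.85 in SThdh111/111, against 11.56, 11.59, 11.64 and 11.57 in SThdh7/7. Every SThdh111/111 sample was above every SThdh7/7 sample, at a difference of 0.29 ± 0.07 (adjusted p = 0.0059). Ndufa2, Ndufa9, Ndufa12 and Ndufa5 differed by 0.13, 0.01, -0.05 and -0.14 and were not called. Ndufa12 depends on the probe set: another one had 11.65, 11.88, 11.84 and 11.80 in SThdh111/111, against 11.95, 12.22, 12.36 and 12.20 in SThdh7/7. That probe set was called lower (-0.39, adjusted p = 0.0046), while the other bright one differed by -0.17 with the lines apart and no call, and was called lower after quantile normalization (-0.28, adjusted p = 0.0010).

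Of 19 accessory subunits of the membrane arm, 9 rose and 2 fell, with a median of 0.09. The share called was 57.9%, near the 54.7% of bright genes, with 47.4% higher beside 27.4%. This difference was not tested. After quantile normalization the counts were 5 and 3, and after centring 6 and 0. Ndufs5, which faces the intermembrane space, had 12.19, 12.29, 12.28 and 12.32 in SThdh111/111, against 11.19, 11.48, 11.67 and 11.47 in SThdh7/7. The SThdh111/111 samples were tight and the SThdh7/7 samples more spread, with no overlap. The means of 12.27 ± 0.06 in SThdh111/111 and 11.45 ± 0.20 in SThdh7/7 (SD, n = 4 each) differed 1.76-fold (0.82 ± 0.09 on the log2 scale, adjusted p = 1.1e-05).

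Ndufa1, an X-linked subunit required for assembly, had 13.54, 13.55, 13.67 and 13.66 in SThdh111/111, against 12.87, 12.95, 13.14 and 13.01 in SThdh7/7. The lines were well apart, at 0.61 ± 0.07 (adjusted p = 1.2e-05). Ndufb10 and Ndufb7, both subunits with cysteine motifs for the intermembrane space, rose by 0.44 and 0.41. The second X-linked subunit, Ndufb11, rose by 0.34, and of its other probe sets 1 rose, by 0.23, and 1 did not pass, at 0.11. After quantile normalization these 4 were still called, Ndufb11 at the smallest difference, 0.19 (adjusted p = 0.015).

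The other 4 rises of the membrane arm, in Ndufc1 (0.28), Ndufa13 (0.24), Ndufb5 (0.24) and Ndufb9 (0.23), were not called after quantile normalization. Ndufb9, the smallest of them, had 13.39, 13.31, 13.51 and 13.51 in SThdh111/111, against 13.04, 13.30, 13.27 and 13.19 in SThdh7/7. The lowest SThdh111/111 sample and the highest SThdh7/7 sample nearly touched, and the adjusted p was 0.038. Another probe set of Ndufb9 lay further apart, at 0.39 (adjusted p = 0.00081). The call was lost without any one of SThdh111/111 samples 1, 3 and 4 or SThdh7/7 samples 1 and 4, at 0.17 to 0.24. Ndufb5 lost its call without any one of SThdh111/111 samples 1, 3 and 4 or SThdh7/7 samples 1 and 2, at 0.18 to 0.24. Ndufa13, also known as the cell death regulator GRIM-19, lost it without SThdh111/111 sample 2 (0.22, adjusted p = 0.064) or 4 (0.19, adjusted p = 0.066), and its sign turned after quantile normalization (-0.01).

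Ndufc2 and Ndufb1 were lower in SThdh111/111. Ndufc2, a small subunit of the membrane arm, had 12.42, 12.69, 12.60 and 12.71 in SThdh111/111, against 12.92, 12.89, 13.15 and 13.09 in SThdh7/7. The lines did not overlap, and the difference was -0.41 ± 0.08, to 0.752 of the SThdh7/7 level (adjusted p = 0.0019). Its other bright probe sets differed by -0.37, which was called, and by -0.22, which was not. The call was lost after centring (-0.27, adjusted p = 0.27), for the mean over its probe sets (-0.17) and without the intensity trend in the fit.

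Ndufb1, one of the smallest subunits, had 8.89, 8.62, 8.38 and 8.34 in SThdh111/111, against 9.02, 9.24, 9.08 and 9.04 in SThdh7/7. The lines were apart but the SThdh111/111 samples were spread widely, and the difference was -0.54 ± 0.15 (adjusted p = 0.016). The call was lost without SThdh111/111 sample 3 (adjusted p = 0.0502) or 4 (adjusted p = 0.052), without both SThdh7/7 samples that stood apart (-0.50, adjusted p = 0.075), and after centring (-0.39, adjusted p = 0.14).

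The other 8 membrane arm subunits did not pass the test. Their differences ran from -0.16 in Ndufb8 to 0.09 in Ndufb6 and Ndufb4, with Ndufb2, Ndufb3, Ndufa3, Ndufa8 and Ndufa10 between them. Ndufb4 was close to the floor: it averaged 6.83 ± 0.35 in SThdh111/111 and 6.74 ± 0.59 in SThdh7/7 (SD, n = 4 each), above the floor on 1 and 2 arrays, so the difference at this probe set carries little information. Ndufb8 was called lower after quantile normalization alone (-0.28, adjusted p = 0.042). Ndufa3 again depended on the probe set, with 0.01 at its main one. At the other it had 11.94, 11.91, 11.93 and 12.09 in SThdh111/111, against 12.11, 12.33, 12.22 and 12.16 in SThdh7/7, and this probe set was called lower (-0.24, adjusted p = 0.021).

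Ndufab1, Ndufa4 and Ndufa4l2 carry the family name, but Ndufab1 is not confined to complex I, and Ndufa4 and Ndufa4l2 are associated with complex IV. By the naming rule all of them are counted among the 36 subunit genes. Ndufab1 is the mitochondrial acyl carrier protein, which also serves fatty acid synthesis and iron-sulphur cluster assembly. It had 11.87, 12.21, 12.26 and 12.25 in SThdh111/111, against 12.13, 12.27, 12.68 and 12.65 in SThdh7/7, with overlapping samples and a difference of -0.28 (adjusted p = 0.14). At this probe set Ndufab1 was called lower after quantile normalization (-0.38, adjusted p = 0.020) and not after centring (-0.14, adjusted p = 0.70). It was also called lower without SThdh7/7 samples 1 and 2 (-0.52, adjusted p = 0.0050). Its second, dimmer probe set had 9.09, 9.24, 9.13 and 8.93 in SThdh111/111, against 9.79, 10.08, 9.83 and 9.75 in SThdh7/7. There the lines were far apart, at -0.76 ± 0.11 (adjusted p = 0.00017), and the call held after quantile normalization (-0.72) and centring (-0.62). Ndufa4, assigned since its naming to cytochrome c oxidase, averaged 13.36 ± 0.15 in SThdh111/111 and 13.38 ± 0.05 in SThdh7/7 (SD, n = 4 each). Ndufa4l2, a hypoxia-induced relative, averaged 7.64 ± 0.36 in SThdh111/111 and 7.54 ± 0.72 in SThdh7/7, above the floor on 4 and 3 arrays. Neither was called.

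Among the 8 Ndufaf assembly factor genes none rose and 2 fell, Ndufaf2 and Ndufaf8, with a median of -0.01. The share called lower, 25%, stands beside 15.9% of all genes, and after centring 1 was called higher and 0 lower. As deposited, limma gave Ndufaf1 alone as higher at an unadjusted p under 0.05, and after centring none as lower. Ndufaf2, which binds late assembly intermediates in place of Ndufa12, had 9.55, 9.44, 9.44 and 9.53 in SThdh111/111, against 9.77, 9.74, 9.95 and 9.85 in SThdh7/7. All SThdh111/111 samples were below all SThdh7/7 samples, at -0.34 ± 0.09 (adjusted p = 0.016). Leaving out SThdh7/7 sample 3 ended the call (-0.30, adjusted p = 0.051), as did centring the arrays (-0.19, adjusted p = 0.42).

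Ndufaf8, partner of Ndufaf5 in modifying Ndufs7, had 10.72, 10.45, 10.43 and 10.80 in SThdh111/111, against 10.83, 10.98, 11.09 and 10.89 in SThdh7/7. The lines were just apart, at -0.35 ± 0.10 (adjusted p = 0.019), and the call was lost without SThdh111/111 sample 2 (adjusted p = 0.067) or 3 (adjusted p = 0.065) or SThdh7/7 sample 3 (adjusted p = 0.06). Its other probe set had 8.83, 8.84, 8.81 and 8.74 in SThdh111/111, against 8.90, 8.56, 8.43 and 8.69 in SThdh7/7, a difference of 0.16 that was not called. The direction of Ndufaf8 is thus not settled between its probe sets. Ndufaf4 differed by -0.16 at its main probe set without a call, and by -0.39 at another, which was called lower (adjusted p = 0.032). Ndufaf1, an early factor for the membrane arm, differed by 0.23 (adjusted p = 0.073), and by 0.30 (adjusted p = 0.0094) without SThdh7/7 sample 2. Ndufaf3, Ndufaf5, Ndufaf6 and Ndufaf7 differed by between -0.02 and 0.09.

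Another 10 assembly factors without the Ndufaf name were measured, of which 2 rose and 1 fell. The share called, 30.0%, was near the 29.0% of all genes. Dmac1, a membrane arm factor, had the lowest adjusted p among the rises, at 0.25 ± 0.07 (adjusted p = 0.012). Tmem70, which also serves ATP synthase assembly, had 11.23, 11.15, 11.15 and 11.25 in SThdh111/111, against 11.49, 11.53, 11.82 and 11.75 in SThdh7/7. The lines were apart, at -0.45 ± 0.08 (adjusted p = 0.00093), and the call was lost after centring (-0.31, adjusted p = 0.18).

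Other probe sets of a called gene mostly gave its direction. Over all probe sets kept, 22.4% were called, 9.87% higher and 12.6% lower. Of the 44 genes, 22 had more than 1 probe set and 22 had 1. Among 34 second probe sets above the floor on all arrays, 16 belonged to called genes: 15 of them had the sign of the main probe set, 11 were called in its direction and 0 in the opposite one. The exception in sign was that of Ndufaf8. Of the 18 that belonged to uncalled genes, 10 had the sign of the main probe set and 8 the opposite one; 0 were called higher and 4 lower, in Ndufa12, Ndufa3, Ndufab1 and Ndufaf4. Of these 4, that of Ndufab1 was still called after centring.

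**Figure D3:**
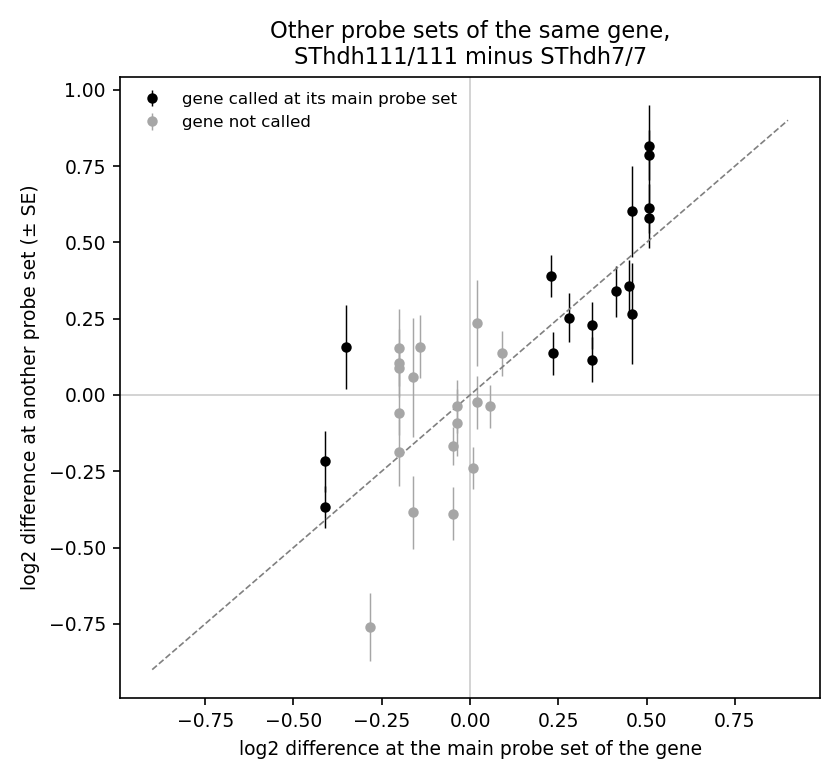
Log2 difference, SThdh111/111 minus SThdh7/7, at the brightest probe set of a gene (horizontal axis) against that at each of its 34 other probe sets above the floor on all arrays (vertical axis, ± SE); black for genes called at the brightest probe set, grey for the others, with a dashed line of equality. Ndufa7 lies at the upper right with all of its probe sets, and the second probe set of Ndufab1 at the bottom, at -0.76.

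The other respiratory complexes also held more rises than falls as deposited. Of 39 genes for subunits of complexes II to V, 14 rose and 4 fell, with a median of 0.16; after quantile normalization the counts were 11 and 11, and after centring 11 and 0, where by limma 2 were lower at an unadjusted p under 0.05. By share, 35.9% rose and 10.3% fell, beside 41.7% and 5.56% for complex I. Of all genes 13.1% rose and 15.9% fell, and of bright genes 27.4% and 27.4%. After quantile normalization the shares were 28.2% and 28.2%, beside 24.1% and 31.0% of bright genes. After centring they were 28.2% and 0%, beside 27.1% and 12.9% of bright genes. Differences between these shares were not tested. In complex II the lowest adjusted p belonged to Sdhd, a membrane anchor (0.96, adjusted p = 3.5e-06). In complex III, Uqcr11 rose by 0.51 and Uqcrfs1, the Rieske iron-sulphur protein, fell by 0.22. In complex IV, Cox6c rose by 0.65 and Cox5a, with overlapping samples, fell by 0.21 (adjusted p = 0.049). In complex V, Atp5l rose by 0.72 and Atp5o, in the stalk of the ATP synthase, fell by 0.45 (adjusted p = 0.0002).

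**Figure D4:**
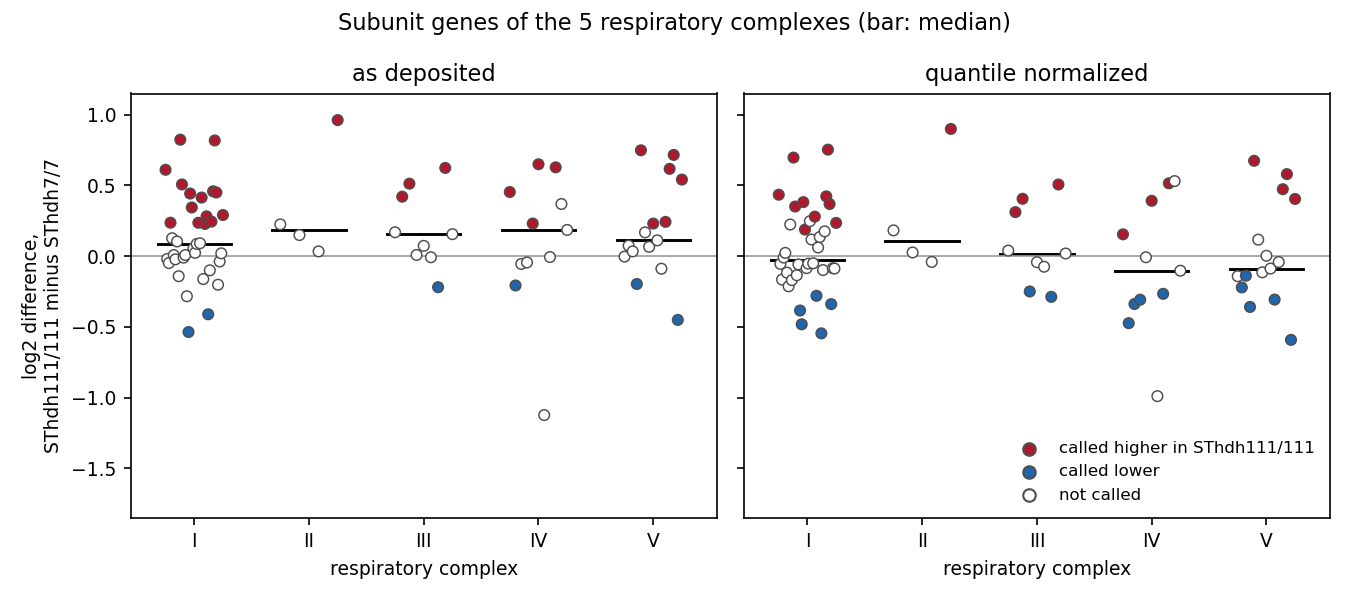
Log2 difference, SThdh111/111 minus SThdh7/7 (vertical axis), of subunit genes of complexes I to V (horizontal axis), as deposited (left) and after quantile normalization (right); each point is a gene, red where called higher in SThdh111/111, blue where called lower, open where not called, and bars are medians. The bar of complex I lies at 0.09 as deposited and at -0.03 after quantile normalization. Complex I holds all subunit genes taken by name, with Ndufa4 and Ndufa4l2 among them.

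Regulators of mitochondrial biogenesis, which control nuclear genes for respiration, had 1 rise and 3 falls among 11 measured genes. By share, 9.09% rose and 27.3% fell, beside 13.1% and 15.9% of all genes, a difference that was not tested. After centring the counts were 1 and 1. Ppargc1a, the coactivator PGC-1 alpha, had 9.89, 10.07, 9.66 and 9.62 in SThdh111/111, against 9.19, 8.95, 9.44 and 9.48 in SThdh7/7, higher in all samples of SThdh111/111 (0.54 ± 0.14, adjusted p = 0.013). Tfb2m, a factor for transcription of mitochondrial DNA, had 8.70, 8.95, 8.88 and 8.80 in SThdh111/111, against 9.78, 9.99, 9.85 and 10.22 in SThdh7/7. Its samples were far apart, at -1.13 ± 0.12 (adjusted p = 7.9e-06). The other falls were in Tfam, which packages mitochondrial DNA (-0.28, adjusted p = 0.027), and in Nrf1, whose motif was searched above (-0.49, adjusted p = 0.036). The call of Nrf1 was lost after quantile normalization (-0.43, adjusted p = 0.056), and those of Tfam and Nrf1 after centring. Yy1 was not called as deposited (-0.15, adjusted p = 0.16) but was called lower after quantile normalization (-0.21, adjusted p = 0.021). The counts after quantile normalization thus stayed at 1 rise and 3 falls.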

How the data were processed

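The authors deposited linear intensity values, 1 for each probe set on each of 8 arrays. The submitters' processing notes name GCRMA, without a version, and no other tool. The deposited intensity values instead had a mean of 500 on each array after trimming 2% from each end, so the tool behind them is not settled; log2 was taken. RNA was extracted with Tri-reagent and purified on RNeasy columns, per the labels' protocols, and groups were read from the sample titles.

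After removal of 64 controls, 41409 of 45037 probe sets reached a log2 of 4 on 4 or more arrays and were kept. The platform's annotation supplied gene names: 34945 had 1 gene, 932 several and 9160 none. Differences (SThdh111/111 minus SThdh7/7) were fitted in R 4.3.3 by limma 3.58.1 (lmFit, then eBayes with the trend option). Two-sided p-values were adjusted by Benjamini-Hochberg over every probe set kept, and called under 0.05. The floor is the 95th percentile of the 27 Bacillus controls, on the array where it was highest. Quantile normalization and centring were applied to the kept probe sets. No 2 arrays held the same values. The number of arrays limits the precision.

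Members and gene lists were chosen with earlier results of these data known. By rule, values per sample are given for genes called as deposited and after quantile normalization with a difference of at least 0.5. They are also given for the largest and smallest called difference in each role group. The rule further covers Ndufab1, Ndufa4 and Ndufa4l2, and genes whose probe sets disagree. Further probe sets of a gene were described where they were above the floor. Of other lists, the called gene of smallest adjusted p is named for each direction. Tfam, Nrf1 and Yy1 were added after their values were seen.

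The fit was tested on simulated data of 41409 probe sets: of 100 bright ones changed by 0.5 on the log2 scale 59 were recovered, of 100 changed by 1, 97, with 7 false calls. Deviations of samples with the same number correlated at -0.01 to 0.01 between the lines, so the numbers were not taken to pair samples. Alternatives were other filters, scalings and probe set choices, an offset, no trend, array weights, a replicate block and leaving out arrays. Promoters were searched with Python 3.11.15 and figures drawn with matplotlib 3.10.9.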

Additional observations from a re-analysis of the deposited data

Results flagged for a closer look

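The values below come from 88 groups of 4 samples, each the values of 1 gene in 1 line, of which 4 held a sample far from the other 3. Chance alone flags about 1 in 20 such groups, so 4 of 88 is no pattern. Ndufab1 was at 11.87 in SThdh111/111 sample 1, below 12.21 to 12.26 in the others. Ndufs3 was at 11.84 in SThdh111/111 sample 3, below 11.93 to 11.94 in the others. Ndufaf1 was at 10.66 in SThdh7/7 sample 2, above 10.35 to 10.37 in the others. Ndufs8 was at 13.14 in SThdh7/7 sample 2, above 12.67 to 12.72 in the others.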

How the results depend on the processing

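Of the 17 called subunit genes, 7 kept their call under each alternative that gave them a value (Ndufa6, Ndufs5, Ndufs7 and Ndufb7 in 21; Ndufa1, Ndufa7 and Ndufb10 in 20, having suffixed probe sets alone) and 12 did when each sample was left out. Subunit genes called higher (15) numbered 8 without the intensity trend and 11 to 15 with each sample left out. Those called lower (2) numbered 5 after quantile normalization, 0 after centring, 1 without the trend, 1 for means over probe sets and 1 to 3 with each sample left out (1 without SThdh111/111 sample 3 or 4). Assembly factors called higher (0) numbered 1 with the filter at a mean log2 of 8, after centring, with array weights and without SThdh7/7 samples 1 and 2, and 0 to 1 with each sample left out. Those called lower (2) numbered 0 after centring and without the trend, 1 without probe sets ending in _x_at, _s_at or _a_at, 1 for means over probe sets and 0 to 2 with each sample left out: 0 without SThdh7/7 sample 3, 1 without SThdh111/111 sample 2 or 3. The median over subunit genes (0.09) was -0.030 after quantile normalization, 0.23 after centring and 0.044 to 0.17 with each sample left out, highest without SThdh7/7 sample 3. Without SThdh7/7 samples 1 and 2, 12 were called higher and 2 lower. Those 2 were Ndufc2 and Ndufab1, since Ndufb1 lost its call there and Ndufab1 gained one. With the sample number as a replicate block, 15 were called higher and 3 lower, and 0 and 2 assembly factors; the numbers are not known to pair the samples. Where a call was involved, signs turned for Ndufa13 after quantile normalization (-0.010) and, without the suffixed probe sets, for Ndufa3 (-0.24) and Ndufaf8 (0.16), where another probe set stands for the gene; of 25 uncalled genes, 21 changed sign under some alternative. Other causes were not tested. Rises of subunit genes were called down to 0.23, and the uncalled differences ran from -0.28 to 0.13. With 4 arrays a line, small differences can be missed. Near the floor the SE was larger, 0.38 in Ndufb4 and 0.34 in Ndufa4l2, so larger differences can be missed there.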

Other observations

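The arrays also held a probe set for ND5, a core subunit of the proton pump that mitochondrial DNA encodes; it is outside the naming rule and was added after its values were seen. It had log2 intensities of 13.10, 13.61, 13.90 and 13.16 in SThdh111/111, against 13.07, 12.67, 12.94 and 12.78 in SThdh7/7. The lines were just apart and the SThdh111/111 samples widely spread, at 0.57 ± 0.15 (SE, adjusted p = 0.014). The call was lost after quantile normalization (0.41, adjusted p = 0.067) and kept after centring (0.72, adjusted p = 0.0099). A further 10 probe sets that match the naming rule are tied to several genes and are left unnamed; 2 were called higher and 2 lower.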
